A study of Mus musculus with 12 samples.

Results

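AGN192403 was compared with vehicle in activated CD8 T cells that carried a control guide. The comparison rests on 4 libraries of the 12 in the series, 2 per group, chosen by their labels alone, and every gene that passed a filter on low counts was described. All were CD8 T cells of OT-I/Cas9 mice, whose transgenes encode a T cell receptor for an ovalbumin peptide and the Cas9 nuclease, with the genotype labelled Ctrl (a single control guide). They had been stimulated once on antibodies to CD3 and CD28, transduced, selected in puromycin and kept in IL-2, IL-7 and IL-15 before the experiment. The vehicle group received H2O and the other group AGN192403 at 100 µM, and both were seeded for 24 h on plates coated with anti-CD3 at 2.5 µg/mL. Resting control cells treated in the same way for 24 h without anti-CD3, and activated Tmed10 KO cells in H2O, served for comparison, again with 2 libraries per group. Resting here means not restimulated. No label says whether replicates came from separate cultures or mice, so the p-values may measure technical spread only.

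TMED proteins, the p24 family, are membrane proteins that cycle between the endoplasmic reticulum (ER) and the Golgi. They pick cargo for COPII vesicles, which leave the ER, and take part in COPI vesicles, which bring material back. AGN192403 was first described as a ligand of imidazoline binding sites, and served in the study as a means to lower the amount of TMED proteins. The study followed PD-1, an inhibitory receptor of activated T cells encoded by Pdcd1. Cells answer trouble along this route with transcription factors controlled from the ER and Golgi (ATF6, XBP1, CREB3 family) and with ATF4. Translation of ATF4 rises when the initiation factor eIF2α is phosphorylated, and the targets of ATF4 make, import and charge amino acids. Antigen receptor signals drive CD8 T cells into the cell cycle and switch on cytokines, granzymes and inhibitory receptors, so all of these gene groups were read here.

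Total counts in the 4 libraries were 12156158 and 12228283 with vehicle and 10372508 and 13560461 with AGN192403, and 17401 to 17782 genes had at least 1 count. CD8 identity was clear. In CPM (counts scaled to a common library size, with TMM factors), Cd8a was at 673 and 691 with vehicle and 713 and 779.9 with AGN192403, and the T cell receptor constant gene Trac was at 229 and 230.3 with vehicle and 223 and 239.7 with AGN192403. Cd4 stayed between 0.378 and 0.755 CPM. Of 19 myeloid and dendritic markers, 9 had 0 counts in all 4 libraries, among them Lyz2, Csf1r, Adgre1 and C1qa, and the B cell genes Ms4a1 and Pax5 were at 0 too. The first principal component of the 4 libraries held 64.0% of their variance and separated the treatments, and the second held 22.5% and separated the replicates within each. The chi-square of replicate counts, divided by its degrees of freedom, was 3.96 with AGN192403, the highest of the 6 groups, and 2.01 with vehicle. Differences between replicates followed transcript length, with a Spearman coefficient across 8898 genes of −0.371 with AGN192403 and −0.302 with vehicle, whereas the treatment difference itself had a coefficient of −0.0045 with length.

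AGN192403 moved a large share of the transcriptome by small amounts and a smaller number of genes by more. Of 13167 genes tested, 4570 (34.7%) were called at an adjusted p of 0.05, of which 2158 (16.4%) were higher and 2412 (18.3%) lower with AGN192403. Adjusted p-values, here and throughout, come from edgeR's quasi-likelihood test with Benjamini-Hochberg adjustment over all genes tested. Where a log2 fold change is followed by ±, the value is a standard error worked back from that test. It is the absolute log2 fold change divided by the square root of the test's F statistic. Where a gene is said to have risen or fallen by an amount, the amount is on the log2 scale. Counts of list members given further on are to be read against these shares. A change of at least 2-fold was seen for 178 called genes that were higher (1.35%) and 282 that were lower (2.14%). The median log2 fold change of all genes was −0.0097. Higher genes made up 47.2% of the calls with TMM scaling and 58.2% with library totals alone, which called 2684 genes higher and 1929 lower, so the balance of small changes depended on the scaling. The 2 groups' libraries did not overlap for 62.8% of all genes tested. In the plot of change against level, the ATF4 pathway and COPI coat genes lay mostly above 0 and the cell cycle genes below it at low and high levels alike.

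**Figure D1:**
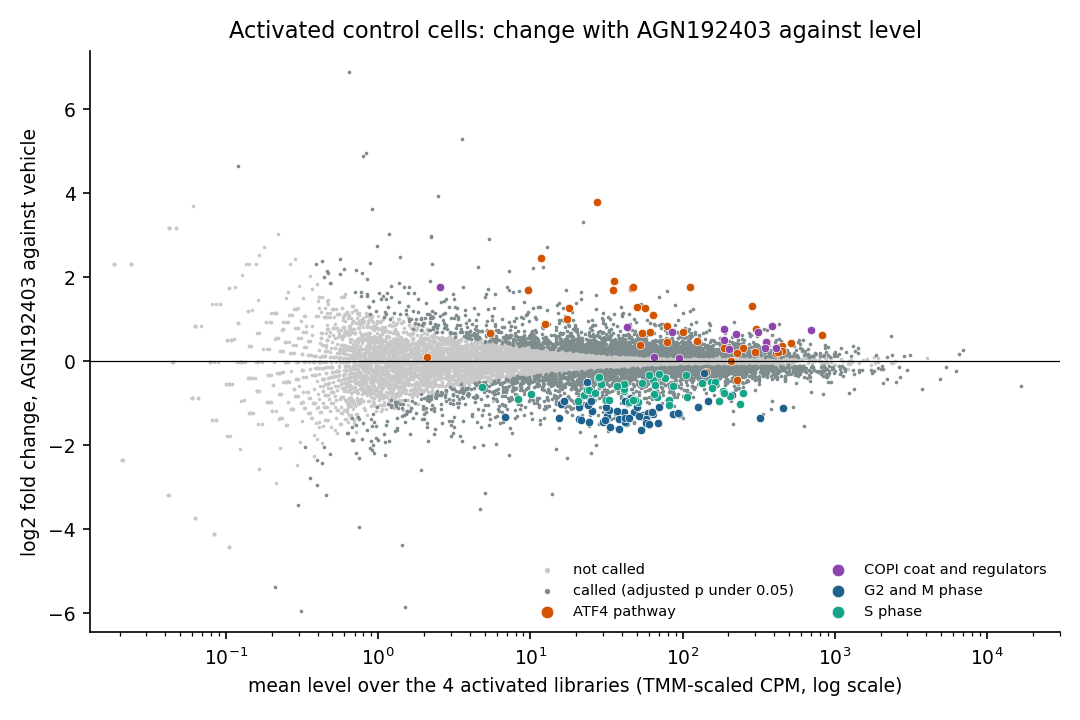
Log2 fold change of each gene tested (AGN192403 against vehicle, activated control cells) against its mean level over the 4 libraries in TMM-scaled CPM on a log axis, with called genes in darker grey and members of 4 lists in colour. All 52 G2 and M phase genes and all 45 S phase genes lie below 0, while 35 of 39 ATF4 pathway genes were called higher.

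Among the 12 largest rises were 4 enzymes and transporters of amino acid and folate metabolism, Aldh1l2, Slc7a11, Pck2 and Slc7a3. Aldh1l2, the mitochondrial 10-formyltetrahydrofolate dehydrogenase (ENSMUSG00000020256, chromosome 10, 83487450 to 83534140), was at 3.67 and 3.69 CPM with vehicle and 50.02 and 51.5 CPM with AGN192403 (log2 3.78 ± 0.12, adjusted p = 8.76e-18). Slc7a11, the cystine importer of the system xc- antiporter (ENSMUSG00000027737, chromosome 3, 49892526 to 50443614), was at 3.67 and 3.52 CPM with vehicle and 20.6 and 18.9 CPM with AGN192403 (log2 2.45 ± 0.14, adjusted p = 8.4e-13). Pck2, the mitochondrial phosphoenolpyruvate carboxykinase (ENSMUSG00000040618, chromosome 14, 55540266 to 55551242), was at 50.5 and 51.7 CPM with vehicle and 172 and 175 CPM with AGN192403 (log2 1.77 ± 0.050, adjusted p = 2.28e-18). In all 3 genes the replicates lay close together. Both AGN192403 libraries lay far above both vehicle libraries, though separate libraries were required by the rule that chose the largest rises. Kdelr3, a receptor that returns escaped ER proteins from the Golgi, rose by log2 2.23 ± 0.14, Atf5, a transcription factor related to ATF4, by 1.92 ± 0.083 and Slc7a3, a transporter of cationic amino acids, by 1.77 ± 0.077. Other leading rises were of varied kinds. Avil, encoding the actin-binding protein advillin, was at 3.75 and 4.36 CPM with vehicle and 37.4 and 42.7 CPM with AGN192403 and rose by log2 3.31 ± 0.14. Angptl6, a secreted angiopoietin-like protein, rose by 2.72 ± 0.15, the adaptor gene Maged1 by 2.22 ± 0.16, the adhesion receptor gene Ceacam1 by 2.14 ± 0.18, Fam114a1 by 1.77 ± 0.16 and Areg, encoding the epidermal growth factor receptor ligand amphiregulin, by 1.78 ± 0.19.

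Among the largest falls were genes for secreted and surface proteins and mitotic genes. Timp1, an inhibitor of metalloproteinases (ENSMUSG00000001131, chromosome X, 20870166 to 20874735), was at 26.7 and 22.9 CPM with vehicle and 2.64 and 2.87 CPM with AGN192403 (log2 −3.16 ± 0.16, adjusted p = 5.81e-14). Selp, the adhesion molecule P-selectin, was at 27.8 and 29.5 CPM with vehicle and 6.70 and 5.15 CPM with AGN192403 (log2 −2.29 ± 0.13, adjusted p = 5.41e-13). S1pr1, the receptor that leads T cells out of lymphoid tissue along a sphingosine phosphate gradient, was at 23.7 and 24.00 CPM with vehicle and 6.23 and 5.07 CPM with AGN192403 (log2 −2.09 ± 0.13, adjusted p = 1.11e-12). Each of the 3 genes was lower in both AGN192403 libraries than in either vehicle library, which the rule that chose the largest falls required. Il22, the cytokine interleukin-22, was at 43.5 and 42.9 CPM with vehicle and 9.91 and 11.5 CPM with AGN192403 (log2 −2.002 ± 0.096, adjusted p = 2.29e-13). Also among these falls were Stra6, a receptor for retinol uptake (log2 −1.71 ± 0.18), and Sox5os3, an antisense RNA at the Sox5 locus (log2 −2.22 ± 0.19), for which reads of overlapping genes may be shared. Filip1, a filamin-binding protein, fell by 2.18 ± 0.13, Tnip3, which binds the NF-κB inhibitor A20, fell by 1.77 ± 0.10 and Slc4a11, a solute carrier of the bicarbonate transporter family, fell by 1.66 ± 0.086. The mitotic genes in this group were the kinesin Kif14 (−1.68 ± 0.090), the kinetochore protein Cenpf (−1.64 ± 0.068) and the kinase Plk1 (−1.62 ± 0.076).

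**Figure D2:**
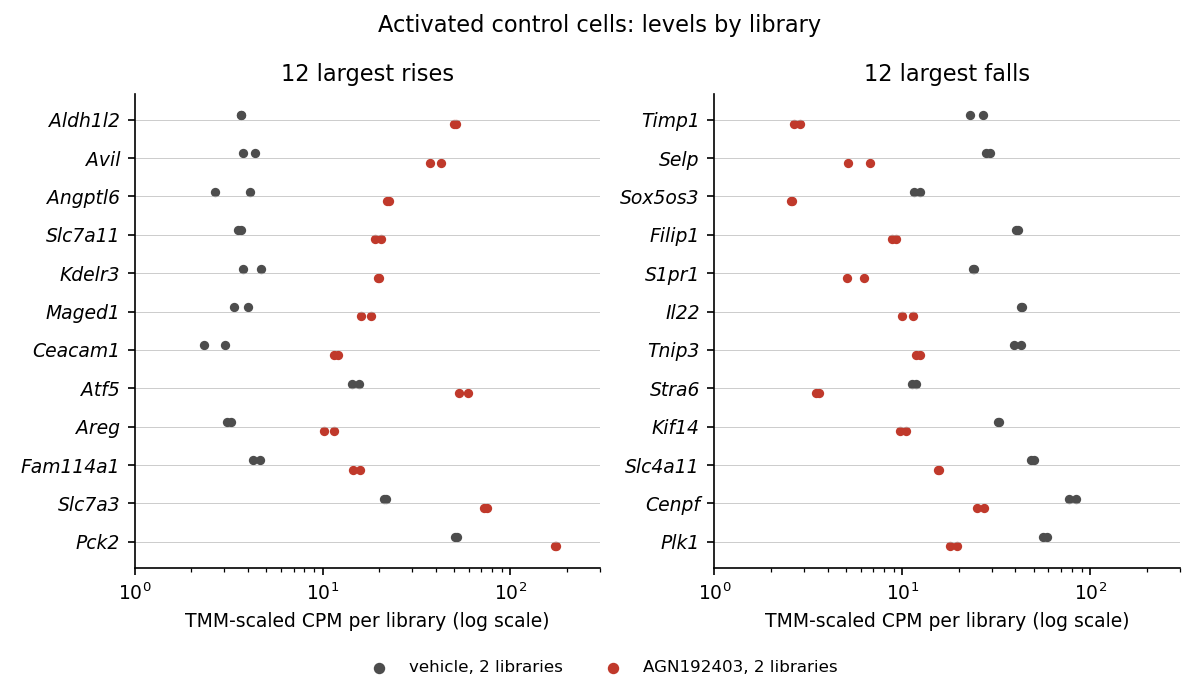
TMM-scaled CPM on a log axis in each of the 2 vehicle and 2 AGN192403 libraries of activated control cells, for the 12 largest rises and 12 largest falls among calls that reached 10 CPM in their higher group and whose libraries did not overlap. Replicates of a treatment lie close together in each gene, and the treatments are separated in all 24 by the rule that chose them.

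The TMED transcripts themselves moved little, and upward where the calls were abundant genes. Tmed10 was at 128 and 125 CPM with vehicle and 135 and 144 CPM with AGN192403 (log2 0.14 ± 0.047, adjusted p = 0.018), Tmed9 at 219.9 and 236 CPM with vehicle and 272 and 289 CPM with AGN192403 (log2 0.30 ± 0.047, adjusted p = 1.34e-05) and Tmed2 at 44.3 and 45.1 CPM with vehicle and 56.9 and 56.9 CPM with AGN192403 (log2 0.35 ± 0.063, adjusted p = 9.59e-05). The rise of Tmed10 was called under 8 of 12 alternative settings, with adjusted p up to 0.221, and is the least certain of the 3. Tmed3 rose by log2 0.46 ± 0.056, and Tmed4, Tmed5, Tmed7 and Tmed8 were not called at log2 0.015 to 0.087. Tmed1, a low transcript at 6.58 and 4.61 CPM with vehicle and 3.21 and 3.23 CPM with AGN192403, fell by 0.80 ± 0.20. Of 11 family genes listed, 9 were tested, 4 were called higher and 1 lower, and the median was log2 0.087. Genes for the imidazoline and alpha2-adrenergic binding sites gave no call in activated cells against vehicle. Of the 2 tested, 1 was called lower at rest and 1 was called lower than in the KO. Nisch, encoding the imidazoline receptor candidate nischarin, was at 304 and 286 CPM with vehicle and 295 and 260.3 CPM with AGN192403 (log2 −0.088 ± 0.062, adjusted p = 0.297), its libraries overlapping between groups, and Maoa was at log2 −0.60 ± 0.33 (adjusted p = 0.169), with the other 4 genes of that list below the filter.

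The message for PD-1 fell slightly and that for CTLA-4, a second inhibitory receptor, fell by more than 2-fold. Pdcd1 (ENSMUSG00000026285, chromosome 1, 94038305 to 94052553) was at 41.99 and 45.7 CPM with vehicle and 34.9 and 37.9 CPM with AGN192403 (log2 −0.26 ± 0.079, adjusted p = 0.011), and the call was kept under 9 of 12 alternatives, with adjusted p up to 0.135. Ctla4 (ENSMUSG00000026011, chromosome 1, 60887000 to 60915832) was at 471 and 485 CPM with vehicle and 194 and 205 CPM with AGN192403 (log2 −1.26 ± 0.043, adjusted p = 5.43e-17). Its 2 treatments did not overlap in any library and the call was kept under all 12 alternatives. Tnfrsf9, encoding the activation marker CD137, was at 2404 and 2516 CPM with vehicle and 2393 and 2573 CPM with AGN192403 (log2 0.014 ± 0.037, adjusted p = 0.826), with the AGN192403 libraries on both sides of the vehicle libraries. Of 22 inhibitory receptors and ligands tested, 9 were called lower and 6 higher, against 18.3% and 16.4% of all genes. Cd200 fell by 0.72 ± 0.059, Tigit fell by 0.54 ± 0.055, Lag3 fell by 0.42 ± 0.047 and Entpd1, the ectonucleotidase CD39, fell by 0.36 ± 0.057. Havcr2, which encodes TIM-3, moved the other way and was at 209 and 211 CPM with vehicle and 332 and 339.5 CPM with AGN192403 (log2 0.68 ± 0.040, adjusted p = 9.08e-13). Nt5e, the ectonucleotidase CD73, rose by log2 0.81 ± 0.16 and Cd200r1, the receptor for CD200, by 1.22 ± 0.22, both from levels near 5 CPM or below.

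Transcripts for the machinery of transport between ER and Golgi rose together. COPI, the coat of retrograde vesicles, gave 13 of 15 genes called higher and 0 lower, with a median of log2 0.64. Copb2, a coat subunit, was at 276 and 283 CPM with vehicle and 492 and 502 CPM with AGN192403 (log2 0.83 ± 0.042, adjusted p = 4.45e-14). Copa, another subunit, rose by log2 0.74 ± 0.037, Arfgap3, which stops ARF1 at the Golgi, by 0.82 ± 0.072 and Gbf1, the exchange factor that recruits the coat through ARF1, by 0.77 ± 0.043. Copz2, the second zeta subunit, rose by log2 1.78 ± 0.29 from about 1 CPM. Of the COPII coat, 12 of 16 genes were called higher and 0 lower, at a median of log2 0.45. Sec23a, which with SEC24 forms the inner coat, was at 66.8 and 68.2 CPM with vehicle and 157 and 155 CPM with AGN192403 (log2 1.21 ± 0.049, adjusted p = 1.08e-15), and its partner Sec24d at 65.9 and 74.2 CPM with vehicle and 167 and 164 CPM with AGN192403 (log2 1.24 ± 0.054, adjusted p = 4.34e-15). Not all paralogs were called. Sec23b, Sec24b and Sar1b were not called, at log2 0.013, −0.10 and −0.025, while Sec31a and Sec13 of the outer coat rose by 0.75 ± 0.040 and 0.62 ± 0.044 and the exit site scaffold Sec16a by 0.54 ± 0.043.

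Receptors and tethers of the same route followed. Of 13 KDEL and cargo receptors, 9 were called higher, among them Kdelr2 (log2 0.69 ± 0.049), Kdelr1 (0.45 ± 0.054), Surf4, a receptor for soluble secreted cargo (0.53 ± 0.043), and Lman1, the lectin ERGIC-53 (0.43 ± 0.039). Cnih4 was the only member called lower, at −0.30 ± 0.091. Of 19 tethers, SNAREs and Rabs, 18 were called higher and 0 lower. Golga2, the golgin GM130, was at 110.1 and 104 CPM with vehicle and 196 and 197 CPM with AGN192403 (log2 0.87 ± 0.047, adjusted p = 1.75e-13), and the fusion proteins Bet1 and Stx5a rose by log2 0.89 ± 0.081 and 0.89 ± 0.053. Golga5 rose by 0.86 ± 0.059 and Yif1a by 0.90 ± 0.070. Bnip1 was the exception, at 0.0070.

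The promoters of the COPI genes are shown because factors of the CREB3 family bind elements of the form TGACGTGG. RefSeq windows from 250 bases before to 50 after the transcription start (build GRCm38.p6) existed for 14 of the 15 COPI genes, and 4 held the 8 letters TGACGTGG on either strand, against 1.04% of the 9502 tested genes with a window and 0.714% of all 27025 windows. Of these, Gbf1 (chr19:46152458-46152557 on the plus strand) and Copb1 (chr7:114254681-114254780 on the minus strand, log2 0.69 ± 0.039) are shown. They were chosen by size of change among called genes with a match wholly upstream of the start. The same rule was used for the other promoters shown, so a gene with a larger change may be passed over. Each line gives 100 bases 5′ to 3′ along the gene's strand, with the match in capitals. A match is a description of letters and not evidence of binding. The shares, here and for the lists below, count listed genes whether or not they changed. The lists group genes by their known function, so these shares are no test of the compound.
Gbf1: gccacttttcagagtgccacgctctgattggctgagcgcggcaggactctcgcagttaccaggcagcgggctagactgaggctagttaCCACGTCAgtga
Copb1: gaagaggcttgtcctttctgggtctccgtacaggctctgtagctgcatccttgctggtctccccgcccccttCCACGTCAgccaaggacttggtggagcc

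Genes for protein folding and degradation in the ER rose in number, at a lower median. Of 37 listed, 30 were called higher and 1 lower, with a median of log2 0.36. Sel1l, the adaptor of the HRD1 ubiquitin ligase that clears misfolded ER proteins, was at 150.3 and 149 CPM with vehicle and 283 and 287 CPM with AGN192403 (log2 0.93 ± 0.042, adjusted p = 7.95e-15). Its partner Syvn1, which encodes HRD1 itself, rose by log2 0.61 ± 0.049, Herpud1 by 0.76 ± 0.047 and Derl1 by 0.61 ± 0.048. Hspa5, the abundant chaperone BiP, was at 1879 and 1848 CPM with vehicle and 2756 and 2902 CPM with AGN192403 (log2 0.60 ± 0.034, adjusted p = 4.48e-13). Dnajb9, a BiP cochaperone, was at 10.7 and 11.9 CPM with vehicle and 22.5 and 22.3 CPM with AGN192403 (log2 0.99 ± 0.10, adjusted p = 3.75e-08). Derl3 rose by log2 1.41 ± 0.28 at under 4 CPM. The sensors Ern1 and Eif2ak3, encoding IRE1α and PERK, were not called, at 0.055 and 0.041, and neither were Calr and Canx, at −0.023 and 0.056. Edem1, a mannosidase-like degradation factor, was the member called lower, at log2 −0.12 ± 0.037. Of 15 cytosolic heat shock genes 0 were called higher and 5 lower, led by Hsp90aa1 at log2 −0.33 ± 0.038.

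ATF6 binds the ER stress response element, made of the blocks CCAAT and CCACG with 9 bases between them. Its last letters, CCACG, are also the start of CCACGTCA, the reverse complement of TGACGTGG, so that a single stretch can hold both. Of 31 genes of the ER list with a RefSeq window, 9 held this element, against 0.168% of tested genes and 0.137% of all windows. The list was made of genes of this response, so the higher share is no result of the treatment. Windows are shown for Derl3 (chr10:75893202-75893301 on the plus strand), Syvn1 (chr19:6046476-6046575 on the plus strand) and Hspa5 (chr2:34771985-34772084 on the plus strand). They were chosen by size of rise among called genes with the element wholly upstream of the start, and it is in capitals on either strand.
Derl3: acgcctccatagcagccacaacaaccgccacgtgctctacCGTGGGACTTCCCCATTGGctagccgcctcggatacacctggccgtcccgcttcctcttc
Syvn1: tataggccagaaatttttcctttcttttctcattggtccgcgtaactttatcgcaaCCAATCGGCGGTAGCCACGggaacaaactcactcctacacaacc
Hspa5: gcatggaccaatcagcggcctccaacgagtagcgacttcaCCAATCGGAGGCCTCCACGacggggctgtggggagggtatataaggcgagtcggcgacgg

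Amino acid supply genes of the ATF4 pathway gave the highest median of the 37 pathway lists. Of 39 tested, 35 were called higher and 2 lower, with a median of log2 0.68. Atf4 itself rose by log2 0.36 ± 0.041, while its targets Ddit3, which encodes CHOP, and Trib3, a pseudokinase that restrains ATF4, rose by 1.28 ± 0.11 and 1.27 ± 0.067. For synthesis, Pycr1, the last enzyme of proline synthesis, was at 21.8 and 20.6 CPM with vehicle and 68.7 and 73.8 CPM with AGN192403 (log2 1.75 ± 0.082, adjusted p = 1.27e-14), and Asns, asparagine synthetase, at 225 and 223 CPM with vehicle and 366 and 404 CPM with AGN192403 (log2 0.78 ± 0.045, adjusted p = 6.35e-13). Serine and one-carbon enzymes rose less, with Phgdh at log2 0.32 ± 0.049, Shmt2 at 0.25 ± 0.040 and Mthfd2 at 0.23 ± 0.043, and Mthfd1l was not called at 0.0064. For import, Slc6a9, a glycine transporter, rose by log2 1.70 ± 0.077 and Slc7a5, the large neutral amino acid transporter, by 0.63 ± 0.038. Nupr1, a small stress-induced chromatin protein, rose by log2 1.70 ± 0.17, and Chac1, which breaks down glutathione, by 0.89 ± 0.12. The 2 members called lower were Ddit4, an inhibitor of mTORC1 (−0.45 ± 0.046), and Atf3, a stress-induced transcription factor (−0.26 ± 0.047). Cytosolic aminoacyl-tRNA synthetases, which charge tRNAs, were mixed, with 9 of 18 called higher and 4 lower, or 2 lower without the first AGN192403 library. Sars, for serine, rose by log2 0.62 ± 0.042 and Wars, for tryptophan, by 0.57 ± 0.045.

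ATF4 with a C/EBP partner binds composite elements of the form TGATGNAA. Of 33 ATF4 pathway genes with a RefSeq window, 11 held it on either strand, against 2.75% of tested genes and 4.51% of all windows. Membership of the pathway chose these genes, so the higher share is no result of the treatment. Windows are given for Slc7a11 (chr3:50443614-50443713 on the minus strand), Pck2 (chr14:55540123-55540222 on the plus strand) and Pycr1 (chr11:120643792-120643891 on the minus strand). They were chosen by size of rise among called genes with a match wholly upstream of the start. Each match is in capitals, and the window of Slc7a11 held 2.
Slc7a11: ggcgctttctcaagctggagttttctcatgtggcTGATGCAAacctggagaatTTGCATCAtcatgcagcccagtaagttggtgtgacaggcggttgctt
Pck2: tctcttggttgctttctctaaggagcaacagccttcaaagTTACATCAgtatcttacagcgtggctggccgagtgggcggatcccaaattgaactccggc
Pycr1: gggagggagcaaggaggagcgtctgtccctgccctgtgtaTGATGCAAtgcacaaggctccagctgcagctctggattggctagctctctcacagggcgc

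Every cell cycle gene that was listed fell. All 52 G2 and M phase genes were called lower, with a median of log2 −1.25 and a range from −1.64 to −0.27, and the same 52 calls were made under each of the 12 alternatives. Plk1 (ENSMUSG00000030867, chromosome 7, 122159439 to 122169873), a kinase of mitotic entry and exit, was at 55.8 and 59.2 CPM with vehicle and 19.6 and 17.9 CPM with AGN192403 (log2 −1.62 ± 0.076, adjusted p = 1.4e-14). Mki67, the proliferation antigen Ki-67, was at 479 and 444 CPM with vehicle and 198 and 163 CPM with AGN192403 and fell by 1.36 ± 0.060. The kinase gene Aurka fell by 1.55 ± 0.079, the separase gene Espl1 fell by 1.49 ± 0.060 and Hmmr, which acts at the spindle, fell by 1.48 ± 0.077. Ccnb1 and Cdk1, the cyclin and kinase that start mitosis, fell too, at log2 −1.45 ± 0.087 and −1.25 ± 0.057. Bub3, a checkpoint protein, and Pttg1, the securin, fell least. All 45 S phase genes were also called lower, at a median of log2 −0.71. Rrm1, the large subunit of ribonucleotide reductase, was at 311 and 321 CPM with vehicle and 155 and 160.0 CPM with AGN192403 (log2 −1.01 ± 0.043, adjusted p = 2.88e-15), and Lig1, the replicative DNA ligase, at 110.1 and 107 CPM with vehicle and 52.9 and 53.2 CPM with AGN192403 (log2 −1.04 ± 0.055, adjusted p = 1.13e-13). Cdc45 of the replicative helicase fell by 0.97 ± 0.063, Tyms, which makes thymidylate, fell by 0.96 ± 0.064 and E2f2 fell by 0.94 ± 0.12. In bulk RNA, fewer cells in a phase and less of these transcripts per cell cannot be told apart.

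Promoters of late cell cycle genes are known for the CHR element TTTGAA, and those of S phase genes for E2F sites such as TTCCCGC. Of 43 G2 and M phase genes with a window, 32 held TTTGAA on either strand, against 14.3% of tested genes and 20.2% of all windows. Of 35 S phase genes, 15 held TTCCCGC, against 10.00% of tested genes and 5.29% of all windows. The G2 and M phase genes shown are Espl1 (chr15:102296193-102296292 on the plus strand) and Ube2c (chr2:164769829-164769928 on the plus strand, log2 −1.45 ± 0.074). The S phase genes shown are Rrm1 (chr7:102441588-102441687 on the plus strand) and Prim1 (chr10:128015115-128015214 on the plus strand, log2 −0.91 ± 0.060). They were chosen by size of fall among called genes with a match wholly upstream of the start.
Espl1: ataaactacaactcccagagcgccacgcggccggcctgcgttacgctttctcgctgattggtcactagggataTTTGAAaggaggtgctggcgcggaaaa
Ube2c: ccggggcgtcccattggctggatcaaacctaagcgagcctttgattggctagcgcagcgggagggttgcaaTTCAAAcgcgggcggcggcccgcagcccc
Rrm1: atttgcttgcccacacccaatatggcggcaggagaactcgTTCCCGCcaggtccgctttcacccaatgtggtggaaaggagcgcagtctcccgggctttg
Prim1: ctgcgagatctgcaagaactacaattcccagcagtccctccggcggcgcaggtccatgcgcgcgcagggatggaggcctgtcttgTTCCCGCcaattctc

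**Figure D3:**
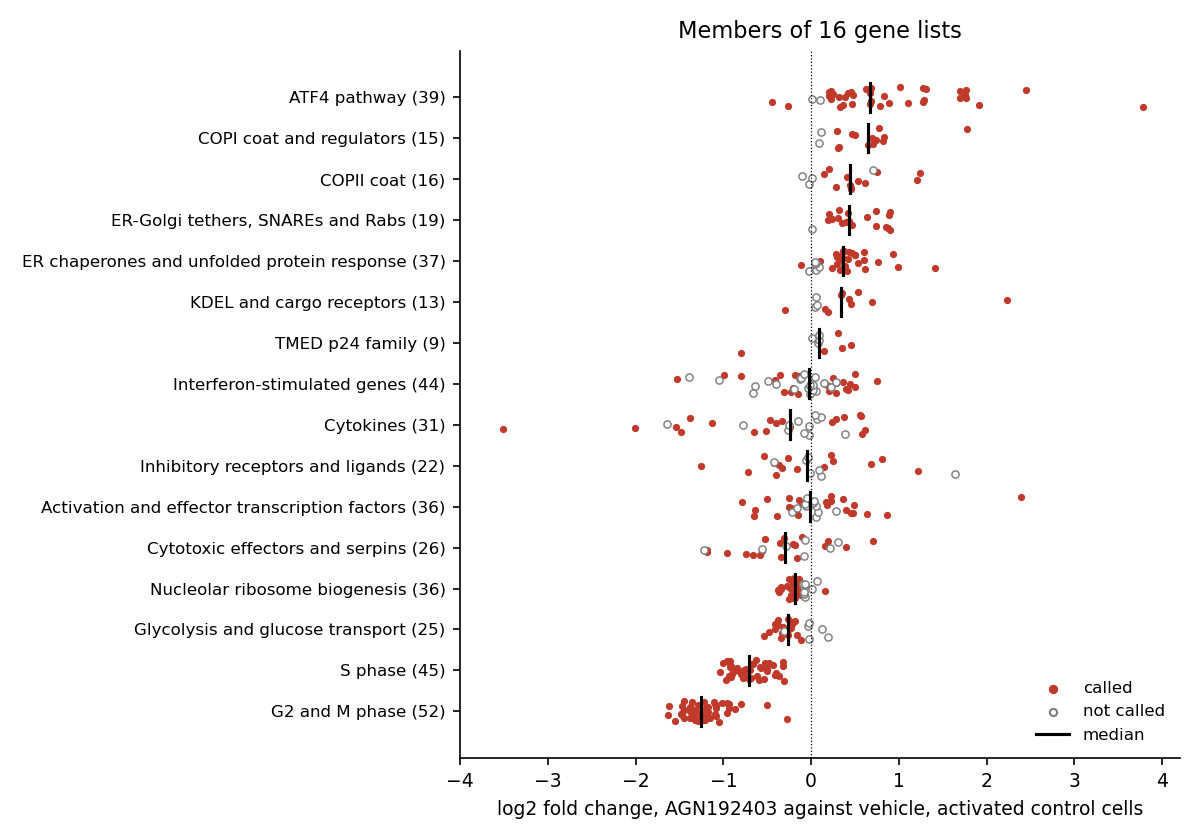
Log2 fold change (AGN192403 against vehicle, activated control cells) of each tested member of 16 gene lists, with called genes filled, other genes open and the list median as a bar, and the number tested in brackets. The ATF4, COPI and COPII lists lie mostly to the right of 0 and the S phase and G2 and M phase lists wholly to the left, at medians of −0.71 and −1.25, while cytokines and transcription factors spread to both sides.

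Cytokine genes split. Of 31 tested, 12 were called lower and 7 higher. Ifng, encoding interferon gamma, was at 4457 and 4664 CPM with vehicle and 2802 and 3018 CPM with AGN192403 (log2 −0.65 ± 0.040, adjusted p = 2.1e-12), with no overlap between treatments. Cytokines of the IL-10 family were among the falls, with Il10 at 314 and 318 CPM with vehicle and 109 and 117 CPM with AGN192403 (log2 −1.48 ± 0.045, adjusted p = 7.37e-18) and Il24 at 933 and 930.4 CPM with vehicle and 309.6 and 331 CPM with AGN192403 (log2 −1.54 ± 0.043, adjusted p = 2.28e-18). Il21, which was at 8.91 and 8.31 CPM with vehicle and 0.849 and 0.662 CPM with AGN192403, fell by 3.51 ± 0.28. The leukaemia inhibitory factor gene Lif fell by 1.13 ± 0.039 and Tnfsf10, encoding the death ligand TRAIL, fell by 1.38 ± 0.088. Tnf went up slightly, at 101 and 109 CPM with vehicle and 123 and 132 CPM with AGN192403 (log2 0.28 ± 0.052, adjusted p = 0.000105), and so did Csf2, encoding GM-CSF, by log2 0.58 ± 0.055, and Il16 by 0.62 ± 0.056. Il2 was at 15.7 and 16.03 CPM with vehicle and 12.6 and 13.7 CPM with AGN192403 (log2 −0.26 ± 0.11, adjusted p = 0.075) and was not called, although its libraries did not overlap. Among 9 chemokines, Ccl9 fell by 0.996 ± 0.061 and Xcl1 fell by 0.77 ± 0.047, while Ccl1 rose by 0.31 ± 0.055 and Cxcl10 by 1.26 ± 0.19. Ccl4 and Ccl5 were not called, at 0.049 and −0.0047.

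The killing machinery was lower. Of 26 cytotoxic effectors and serpins, 15 were called lower and 4 higher, or 2 higher without the first vehicle or the second AGN192403 library. Gzmb, granzyme B, was at 19550.5 and 20457 CPM with vehicle and 12900.2 and 13914 CPM with AGN192403 (log2 −0.58 ± 0.035, adjusted p = 1.11e-12), and Prf1, perforin, at 927 and 952 CPM with vehicle and 706 and 765 CPM with AGN192403 (log2 −0.35 ± 0.041, adjusted p = 1.7e-07). Gzma fell by 0.67 ± 0.040, and Gzmc, Gzmd, Gzme and Gzmg fell too, at log2 −0.74 ± 0.044, −0.96 ± 0.042, −1.18 ± 0.047 and −1.19 ± 0.062, although these clustered granzyme genes are near copies and reads may have been split among them. Serpina3g, a protease inhibitor, rose by log2 0.71 ± 0.064.

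Receptors for costimulation and homing leaned lower. Of 21 costimulatory and activation receptors, 8 were called lower and 4 higher, or 2 higher without the first vehicle library. Tnfrsf8, which encodes CD30, was at 724 and 723 CPM with vehicle and 332 and 349 CPM with AGN192403 (log2 −1.09 ± 0.041, adjusted p = 4.19e-16), Cd2 fell by 0.60 ± 0.051 and Tnfrsf4, encoding OX40, fell by 0.47 ± 0.046. The early activation marker Cd69 rose by log2 0.43 ± 0.054. Of 21 trafficking receptors and integrins, 10 were called lower and 1 higher. Beside Selp and S1pr1, the chemokine receptor gene Cxcr4 was at 23.9 and 22.1 CPM with vehicle and 10.6 and 12.2 CPM with AGN192403 (log2 −1.002 ± 0.096, adjusted p = 7.11e-09). Of the T cell receptor complex and its proximal signalling, 24 genes gave 5 higher and 5 lower calls, near the shares of all genes (16.4% and 18.3%). With library totals alone 9 of the 24 were called higher, beside 2684 of all 13167 genes. The lower calls were fewer without the second vehicle library. Lcp2, the adaptor SLP-76, rose by log2 0.40 ± 0.038 and Nfatc1 by 0.38 ± 0.052, whereas Plcg1 fell by 0.49 ± 0.048.

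Transcription factors of activation moved in both directions. Of 36 tested, 12 were called higher and 13 lower. Egr1, an immediate early factor, was at 58.7 and 66.9 CPM with vehicle and 115 and 114 CPM with AGN192403 (log2 0.87 ± 0.055, adjusted p = 3.38e-12), and Egr2 and Egr3 rose by log2 0.64 ± 0.077 and 0.48 ± 0.075. Eomes rose by 0.46 ± 0.054. Batf, an AP-1 factor of effector cells, fell by 0.65 ± 0.070, Fosl2 fell by 0.64 ± 0.043 and the orphan receptor gene Nr4a2 fell by 0.78 ± 0.054. Tox was called higher by log2 2.39 ± 0.73 from at most 0.944 CPM, a level too low to read further. Among 26 feedback inhibitors, 6 were called higher and 7 lower. Socs3, an inhibitor of cytokine receptors, was at 74.9 and 66.7 CPM with vehicle and 25.3 and 26.1 CPM with AGN192403 (log2 −1.46 ± 0.080, adjusted p = 2.35e-13), while Dusp6, a phosphatase of ERK, rose by log2 0.51 ± 0.059 and Spry1 by 0.62 ± 0.11. In the naive and memory list, Myb fell by 0.68 ± 0.055 and Klf3 and Bcl6 rose by 0.99 ± 0.19 and 1.21 ± 0.35 at under 6 CPM.

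Glycolysis and nucleolar genes were lower by small amounts. Of 25 glycolysis and glucose transport genes, 19 were called lower and 0 higher, with a median of log2 −0.27. Ldha, lactate dehydrogenase A, was at 2858 and 3040.4 CPM with vehicle and 2031 and 2189 CPM with AGN192403 (log2 −0.48 ± 0.039, adjusted p = 2.61e-10) and Pkm, pyruvate kinase, at 2457 and 2601 CPM with vehicle and 1836 and 1958 CPM with AGN192403 (log2 −0.41 ± 0.037, adjusted p = 1.6e-09). The glucose transporter gene Slc2a3 fell by 0.37 ± 0.042. Of 36 nucleolar genes for ribosome biogenesis, 27 were called lower and 1 higher, at a median of log2 −0.19, with nucleolin (Ncl) at 2979 and 3087 CPM with vehicle and 2289 and 2428 CPM with AGN192403 (log2 −0.36 ± 0.036, adjusted p = 9.92e-09). Cytosolic ribosomal protein genes gave 28 of 78 called higher and 2 lower, or 4 lower without the second AGN192403 library, but the count of higher calls was 5 without the first vehicle library, 12 without the second AGN192403 library, 47 without the first AGN192403 library and 44 with library totals alone, so it has no firm value. Of 74 nuclear genes of the respiratory chain, 6 were called higher and 11 lower, or 3 higher without the first vehicle library and 24 lower without the second AGN192403 library, against 16.4% and 18.3% of all genes.

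Some genes of cell death and of the p53 response rose. Bbc3, encoding the p53-inducible killer PUMA, was at 9.41 and 9.57 CPM with vehicle and 21.4 and 20.7 CPM with AGN192403 (log2 1.15 ± 0.13, adjusted p = 7.23e-08). Bcl2l11, encoding the related BIM, was at 26.99 and 26.2 CPM with vehicle and 41.2 and 41.2 CPM with AGN192403 (log2 0.63 ± 0.065, adjusted p = 2.41e-08). Of 25 BCL2 family and apoptosis genes, 7 were called higher and 4 lower, against 16.4% and 18.3% of all genes. The count of higher calls was 4 with DESeq2 and that of lower calls 2 with library totals alone, and both depended on the library left out. The shares of all genes also differed between settings, so no lean of this list is claimed. Of 25 p53 targets, 13 were called higher and 2 lower, among them Trp53inp1 (log2 0.67 ± 0.048), Plk2 (0.62 ± 0.046) and Sesn2 (0.47 ± 0.046). Cdkn1a, the p21 gene, rose by log2 0.14 ± 0.038, and Mdm2 was not called at 0.081. Gtse1, a cell cycle gene within this list, fell by 0.75 ± 0.055.

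Interferon-stimulated genes gave 12 higher and 11 lower calls of 44. Without any 1 of the 4 libraries the lower calls numbered 6 or 7. Mx1, an antiviral GTPase, rose by log2 0.75 ± 0.090 and Irf1 by 0.44 ± 0.072, and Samhd1 fell by 0.80 ± 0.043. Class I presentation was slightly higher, with H2-K1 at 1226 and 1295 CPM with vehicle and 1553 and 1597 CPM with AGN192403 (log2 0.32 ± 0.037, adjusted p = 1.39e-07) and Tap2 at log2 0.20 ± 0.041, and 7 of 21 genes of the list were called higher against 1 lower. Cd74, the class II invariant chain, was at 43.8 and 47.7 CPM with vehicle and 78.1 and 89.4 CPM with AGN192403 (log2 0.88 ± 0.068, adjusted p = 1.35e-10). Markers of other cell types moved with these results. The summed level of 19 myeloid markers was 128 to 133 CPM with vehicle and 176 to 189 CPM with AGN192403, nearly all of it Cd74, Cst3 and H2-Ab1, and that of 5 CD4 T cell markers 55.2 to 59.99 CPM and 89.9 to 95.8 CPM, mostly Zbtb7b and Gata3. Cst3 rose by log2 0.42 ± 0.055, Zbtb7b by 0.92 ± 0.071 and Kit, a mast cell marker, by 0.24 ± 0.063, while H2-Ab1 was not called at log2 −0.22 and H2-Aa and H2-Eb1 were below the filter. The summed B cell markers were at 29.7 to 33.1 and 33.9 to 39.3 CPM, almost all Ighm, and the stromal markers at 27.9 to 30.2 and 21.8 to 24.0 CPM, almost all Pecam1. NK cell markers summed to 1704 to 1750 CPM with vehicle and 1102 to 1197 CPM with AGN192403, through Gzma and Eomes, which CD8 T cells also express, and Ncr1 was at 0. Neutrophil, mast cell and erythroid sums were at most 2.17, 54.2 and 4.34 CPM. The part of other cells in the results was not tested, and the defining markers Cd4, Lyz2, Csf1r, Ms4a1 and Ncr1 were at or near 0.

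The question of whether the compound did the same in resting cells was put to 4 other libraries, resting control cells with and without AGN192403. There 3341 genes (25.4%) were called, 1533 higher (11.6%) and 1808 lower (13.7%), and 1883 in all without the second resting AGN192403 library. The balance at rest turned with library totals alone, to 1991 higher and 1426 lower, and with an offset for exonic length, to 1756 and 1581. Of the calls in activated cells, 40.8% were also called at rest, and of the calls at rest 55.8% were called in activated cells, 1864 genes in all, of which 1591 had the same direction. As a description, log2 fold changes in the 2 states had a Pearson coefficient of 0.278 across the 13167 genes. Across the genes called in activated cells the coefficient was 0.454. The difference between the states was tested as an interaction. It was called for 2592 genes (19.7%), with the AGN192403 effect higher in activated cells for 1135 (8.62%) and lower for 1457 (11.1%).

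The ER and amino acid groups rose in both states. The COPI list had 14 of 15 genes called higher at rest, at a median of log2 0.85, and the interaction was called lower in activated cells for 8. Copb2 rose by log2 1.24 ± 0.042 at rest and by 0.83 ± 0.042 in activated cells (adjusted p of the difference = 1.57e-05). The ATF4 list had 33 of 39 called higher at rest, at a median of 0.69, but 20 of the 39 differed between states. The effect was called higher in activated cells for 8 and lower for 12, with 5 higher without the first activated vehicle library or without either resting vehicle library. Pck2 rose by 1.93 ± 0.056 at rest, and its difference between states was log2 −0.17 ± 0.078 (adjusted p = 0.139). For the ER list the balance was the other way, with the effect called higher in activated cells for 11 of 37 genes. Sel1l rose by 0.36 ± 0.045 at rest and by 0.93 ± 0.042 in activated cells.

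The falls in cell cycle genes were deeper in activated cells. At rest 51 of 52 G2 and M phase genes were called lower, at a median of log2 −0.52 against −1.25, and the effect was called lower in activated cells for 49. The S phase medians were −0.23 and −0.71, with 37 of 45 called for the difference. Nucleolar ribosome genes changed sign. At rest 18 of 36 were called higher and 0 lower, or 11 higher without the second resting AGN192403 library, whereas 27 were lower in activated cells, and the difference was called for 30. Activation transcription factors were called lower at rest in 23 of 36 cases and higher in 1, with 14 lower calls without the second resting AGN192403 library, and the effect was called higher in activated cells for 13 and lower for 6, or 3 lower without the first resting vehicle library.

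**Figure D4:**
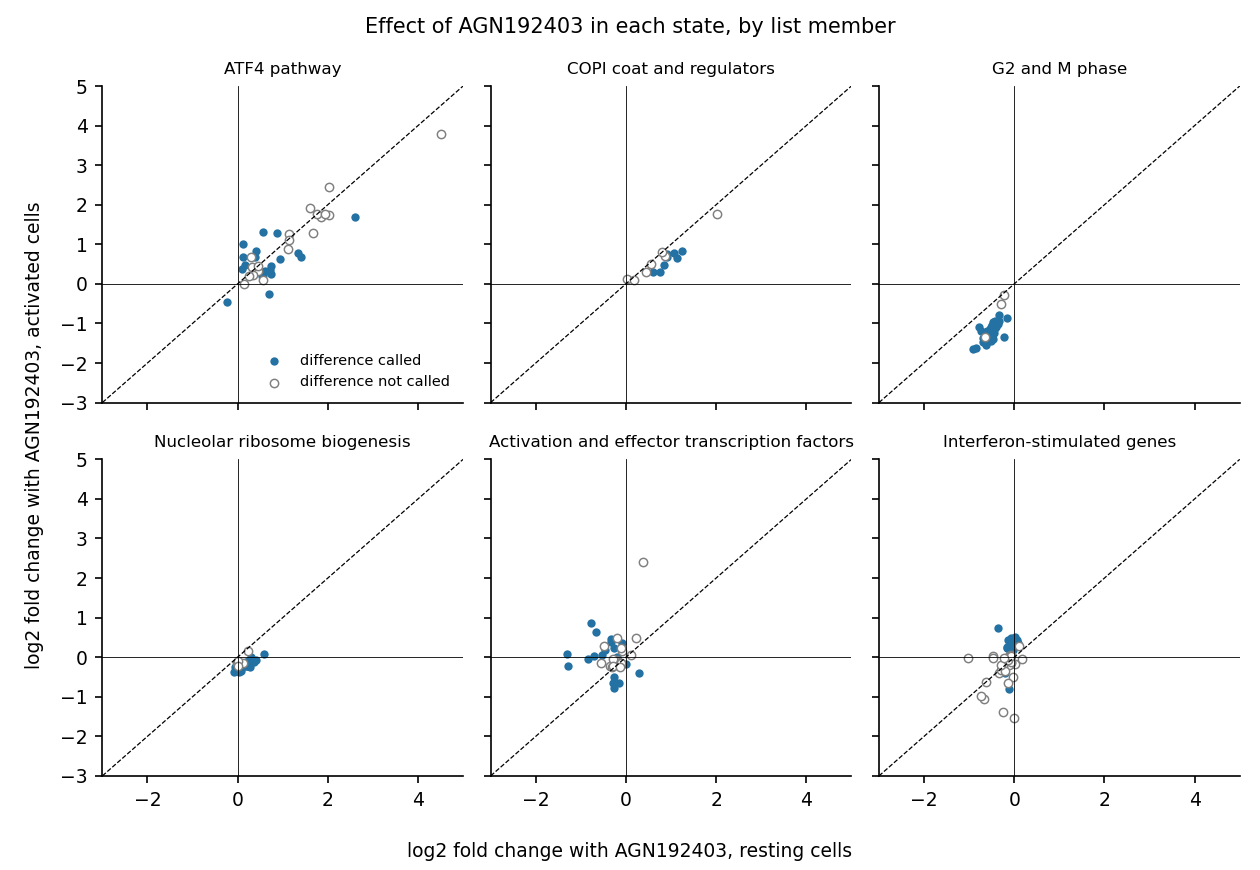
Log2 fold change with AGN192403 in activated cells (vertical) against that in resting cells (horizontal) for the tested members of 6 lists, filled where the difference between states was called, with the dashed line marking equal effects. COPI genes lie in the upper right, mostly below the line, G2 and M phase genes below it in the lower left, and nucleolar genes mostly right of and below the origin.

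In 273 of the 13167 genes tested the compound had opposite called effects, 161 of them higher in activated cells and lower at rest. Some rest on very few counts, such as Ceacam1, with 3 and 2 counts at rest with vehicle and 0 and 0 with AGN192403. Egr1 was at 373 and 372 CPM at rest with vehicle and 223 and 216 CPM with AGN192403, a change of log2 −0.77 ± 0.044, against a rise by 0.87 ± 0.055 in activated cells. Havcr2 fell by 0.34 ± 0.047 at rest and rose by 0.68 ± 0.040 in activated cells. Eomes and Mx1 had the same pattern, at −0.33 and −0.36 at rest against 0.46 and 0.75. Of the leading genes, Avil rose in both states but by more in activated cells, and Hid1, a Golgi-associated protein, was at 10.7 and 10.1 CPM with vehicle and 32.2 and 33.1 CPM with AGN192403 in activated cells while it fell by 0.34 ± 0.079 at rest. Chchd10, a mitochondrial protein, and Vwa5a rose by log2 1.70 ± 0.077 and 1.66 ± 0.055 in activated cells and were not called at rest, with a difference of 1.84 ± 0.15 and 1.69 ± 0.073. On the lower side S1pr1, Slc4a11 and Il24 fell in activated cells and were not called at rest, and Tgm2 (transglutaminase 2) fell in both states, with differences of log2 −1.94 ± 0.15, −1.76 ± 0.18, −1.35 ± 0.083 and −1.44 ± 0.075 in that order.

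AGN192403 was set directly against the Tmed10 KO in activated cells, a contrast in which the vehicle libraries cancel. Called differences numbered 2673 (20.3%), 967 with a higher level under AGN192403 (7.34%) and 1706 with a lower level (13.0%), and 1726 in all without the first KO library. At least 2-fold differences numbered 50 higher (0.380%) and 69 lower (0.524%). They numbered 6 and 16 with DESeq2, and 15 and 32 with a filter of 5 CPM in any group. The higher count also depended on the AGN192403 library left out, so these counts have no firm value. With library totals alone the split of all called differences was 1500 higher and 1204 lower. Tmed10 separated them first, at 55.9 and 58.3 CPM in the KO, 128 and 125 CPM with vehicle and 135 and 144 CPM with AGN192403, a difference of log2 1.30 ± 0.052 between the KO and AGN192403. Tmed9 and Tmed2 did not differ beyond the threshold, at 0.079 ± 0.047 (adjusted p = 0.255) and 0.16 ± 0.061 (adjusted p = 0.0665). Pdcd1 was at 36.6 and 36.4 CPM in the KO and 34.9 and 37.9 CPM with AGN192403, with a difference of log2 0.00030 ± 0.081. Ctla4 was lower with AGN192403, at 194 and 205 against 342 and 359.7 CPM (log2 −0.81 ± 0.044, adjusted p = 3.21e-12).

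Large gene groups differed between AGN192403 and the KO. G2 and M phase genes were called lower with AGN192403 in 50 of 52 cases and S phase genes in 43 of 45, at medians of log2 −0.78 and −0.46. Plk1 was at 39.2 and 40.9 CPM in the KO and 19.6 and 17.9 CPM with AGN192403. The ATF4 list had 19 genes higher with AGN192403 and 2 lower, with Pck2 at 119 and 127 against 172 and 175 CPM, and the COPI list 9 higher and 0 lower. ER chaperone genes were called higher in 12 of 37 cases, or in 5, 6 or 7 without the second KO, the first KO or the second AGN192403 library. Glycolysis genes were called lower in 19 of 25 cases. Ifng was at 3783 and 3939 CPM in the KO and 2802 and 3018 CPM with AGN192403 (log2 −0.41 ± 0.040, adjusted p = 5.27e-08). Il22 and S1pr1 led the genes lower with AGN192403 than in the KO, at log2 −1.70 ± 0.099 and −1.62 ± 0.13. The genes most above the KO were, beside Tmed10, Kcnq1ot1 (2.76 ± 0.61) and Malat1 (1.62 ± 0.25), which are long nuclear RNAs, Map1b (1.21 ± 0.17), Neb (1.14 ± 0.18) and Kmt2d (1.03 ± 0.14). The AGN192403 libraries lay far apart for some of these, with Kcnq1ot1 at 42.2 and 8.23 CPM and Malat1 at 1833 and 752 CPM, and neither of the 2 was called against vehicle. The difference from the KO had a Spearman coefficient of 0.207 with exonic length across 8898 genes. With an offset for exonic length 2625 genes were called, 1142 higher and 1483 lower, and all 6 genes kept their call, with Kcnq1ot1 at log2 1.88 in place of 2.76.

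**Figure D5:**
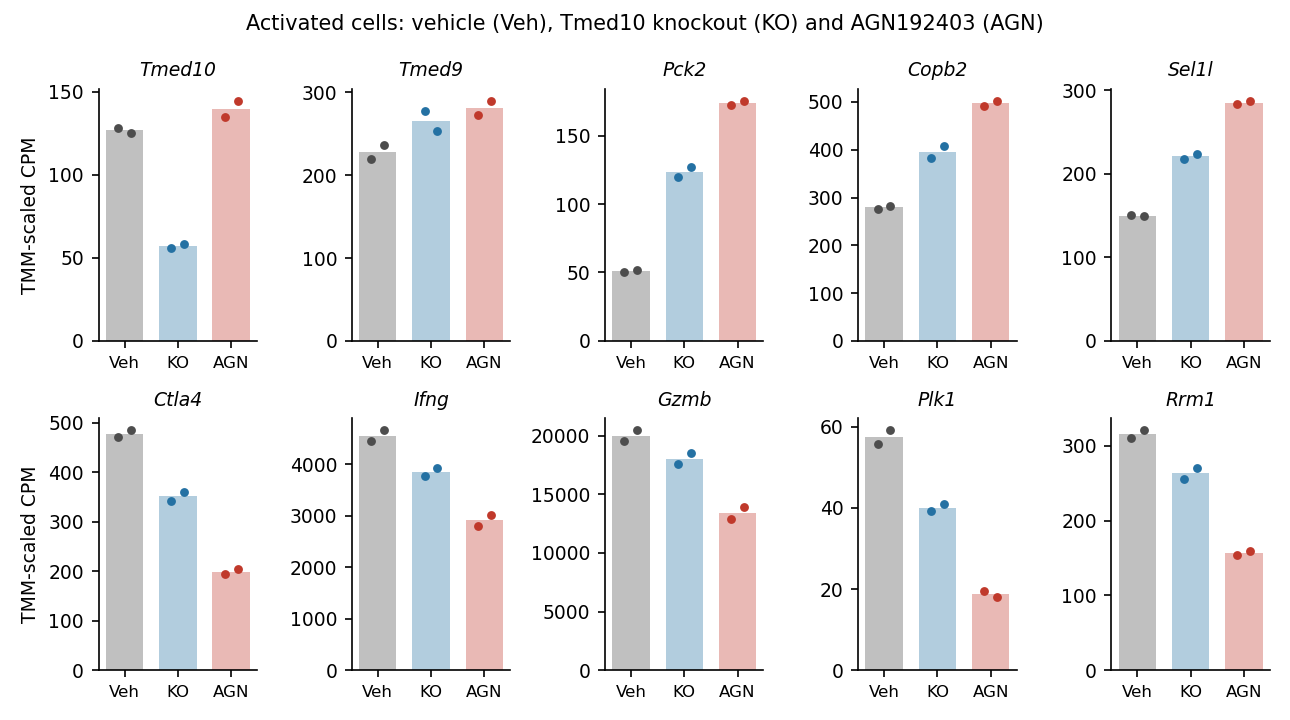
TMM-scaled CPM of 10 genes in activated cells with control guide and vehicle (Veh), Tmed10 KO and vehicle (KO), and control guide and AGN192403 (AGN), with bars for the mean and points for the 2 libraries. Tmed10 is low in the KO alone, and in Pck2, Copb2, Sel1l, Ctla4, Ifng, Gzmb, Plk1 and Rrm1 the KO lies between vehicle and AGN192403. The 10 genes were chosen by hand, so they do not show how often this holds over all genes.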

How the data were processed

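The deposited table holds whole-number read counts per gene. Per the labels and the methods of the study, the authors made stranded libraries of polyadenylated RNA, aligned reads to GRCm38 (mm10) with STAR, given as 2.6.0c in the submitters' processing notes and as another version in the methods, and counted with HTSeq, whose settings are not given in the sources used here. Of 46603 gene identifiers, 46091 were matched to a symbol in GENCODE M21, and the other 512 held 0.0709% of counts. The 12 libraries held 9089350 to 16481840 counts.

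Tests were run in R 4.3.3 with the package edgeR 4.0.16. The filterByExpr rule over the 6 groups kept 13167 genes with 99.9% of counts, libraries were scaled by TMM (factors 0.976 to 1.02), and 1 mean per group was fitted to the 12 libraries, which left 6 residual degrees of freedom, at a common biological coefficient of variation of 0.0306. A call is an adjusted p (Benjamini-Hochberg) under 0.05. The fit was tested on simulated counts with known changes. Motifs were searched in RefSeq promoter windows of GRCm38.p6, and coordinates are those of GRCm38.

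The 37 pathway lists, 9 marker lists and the comparisons were chosen with earlier results of these data known. Genes named are Tmed10, Tmed9, Tmed2, Pdcd1, Ctla4, Tnfrsf9, Ifng, Il2, Tnf and Nisch, the 12 largest rises and falls among called genes of at least 10 CPM with separate libraries, up to 5 called members of each list, and the 6 largest differences each way between states and from the knockout. Other list members were named after their values were seen. Alternatives were no filter, 5 CPM, median-ratio size factors, no TMM, DESeq2 1.42.0, only the libraries of a contrast, a replicate block, each library left out, and, added after seeing the data, an offset for exonic length (loess span 0.4). With a library left out the lone one was assumed to vary like the other groups. Replicate numbers were shared across groups but were not used as pairs. A result for 1 gene is not reported here.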

Additional observations from a re-analysis of the deposited data

Results flagged for a closer look

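The effect of AGN192403 differed between activated and resting cells, by the test of the difference itself, in 2592 genes. Among the named genes this applied to Avil, with a difference of log2 2.55, Hid1 1.99, Maged1 1.95, Chchd10 1.84 and Vwa5a 1.69, where the effect was higher in activated cells. It was lower in activated cells for S1pr1 −1.94, Slc4a11 −1.76, Tnip3 −1.65, Tnfsf10 −1.50, Tgm2 −1.44 and Il24 −1.35. Ceacam1 had a fitted difference of 6.60, which is no measure of size, because its counts at rest were 3 and 2 with vehicle and 0 and 0 with AGN192403. Tnip3 had only 5 to 9 counts at rest and Maged1 only 9 to 19, so their differences are uncertain in size. The effect on Pdcd1 was higher in activated cells by log2 0.45, since it fell by 0.71 ± 0.11 at rest and fell by 0.26 ± 0.079 in activated cells. For Ctla4 the difference was −0.56, with falls of −0.70 ± 0.048 at rest and −1.26 ± 0.043 in activated cells. For Tnf it was 0.39.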

How the results depend on the processing

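DESeq2 called fewer genes in each comparison, 3031 in activated cells, 1935 at rest, 1491 for the difference between states and 1525 against the knockout. Leaving out 1 library gave 3538 to 4164 calls in activated cells, 1883 (without resting AGN192403 replicate 2) to 2556 at rest, 1800 to 2850 for the difference and 1726 (without KO replicate 1) to 2765 against the knockout. Without a filter the activated comparison called 4253 genes, and with the length offset 4637. Of 198 called named genes, 169 were called under every one of the 12 alternatives that tested them, and 0 turned sign. The named genes were mostly chosen as the larger changes among calls of these same libraries, so their persistence is no independent check. Some genes of low level were not tested under each alternative. Among those not called, Tnfrsf9 turned to log2 −0.019 without vehicle replicate 1 and ran from −0.0399 to 0.0649 over the libraries left out, the lowest without AGN192403 replicate 2, and Nisch ran from −0.179 to 0.00216, the highest without AGN192403 replicate 2. Whether shared replicate numbers pair the libraries is not stated in the labels. Replicate differences of activated vehicle and AGN192403 libraries correlated at 0.23, and the 15 pairs of groups ran from −0.05 to 0.245. A fit with a replicate block called 4848 genes in activated cells, 3661 at rest, 2918 for the difference and 3124 against the knockout. Genes under 1 CPM, such as Tox, rest on few counts at this depth.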

Other observations

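Lysosome and autophagy genes leaned upward, with 19 of 46 called higher and 9 lower in activated cells, against 16.4% and 18.3% of all genes. Sqstm1, the autophagy receptor p62, was at 160.0 and 171 CPM with vehicle and 399.7 and 417 CPM with AGN192403 (log2 1.30 ± 0.044, adjusted p = 3.48e-17). The autophagosome proteins Gabarap and Map1lc3a rose by log2 0.68 ± 0.054 and 0.73 ± 0.22, and the protease gene Ctsl by 0.95 ± 0.19 at under 7 CPM. Gla, encoding alpha-galactosidase A, fell by 0.85 ± 0.11. Of 23 NRF2 targets and glutathione genes, 7 were called higher and 4 lower, the latter near the share of all genes, at a median of log2 0.027. Nqo1, a quinone reductase, was at 1.92 and 3.19 CPM with vehicle and 6.89 and 8.45 CPM with AGN192403, and Srxn1 and Hmox1 rose by 0.63 ± 0.061 and 0.54 ± 0.080.

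Cholesterol genes gave 14 higher and 5 lower calls of 27, against 16.4% and 18.3% of all genes and with 2 or 3 lower calls without any 1 of the 4 libraries, at a median of log2 0.15, with Dhcr7 at 0.34 ± 0.061 and Insig1 at 0.30 ± 0.055, while the efflux pump gene Abca1 fell by 0.81 ± 0.22. N-glycan genes gave 14 higher and 4 lower calls of 36. Without the second AGN192403 library these were 9 and 2, and the lower calls were 2 without the first vehicle library and 1 with library totals alone or with DESeq2. The list was led by the oligosaccharyltransferase genes Ostc at 0.43 ± 0.048 and Stt3a at 0.42 ± 0.039. Fatty acid oxidation genes gave 1 higher and 1 lower call of 21, fewer than the shares of all genes, or 4 higher with library totals alone, with Acadl, a long-chain acyl-CoA dehydrogenase, at −0.52 ± 0.050. The mitochondrially encoded mt-Nd5 rose by 0.14 ± 0.041 and mt-Nd1 fell by 0.19 ± 0.055. The nuclear RNA Neat1 was at 199.8 and 187 CPM with vehicle and 279 and 247 CPM with AGN192403 (log2 0.44 ± 0.097, adjusted p = 0.000833) and Gas5 rose by log2 0.20 ± 0.041.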
